A study of Mus musculus with 12 samples.

Results

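The 8 genes described here encode transcription factors that set and maintain the identity of the intestinal epithelium, and they were followed in RNA from the colon of 12 mice. The genes are Cdx1, Cdx2, Hnf4a, Hnf4g, Klf4, Klf5, Vdr and Nr1i2, which were taken by name from the 54532 genes of the deposited table, and all 8 were among the 24102 genes with enough reads to be tested. There were 4 groups of 3 libraries. Tmem173fl/fl mice (labelled WT) have floxed Tmem173, which encodes STING, without a Cre. Tmem173iΔmye mice (labelled CRE) have the same floxed alleles plus Lyz2-Creert2, a Cre recombinase driven from the Lyz2 gene of myeloid cells and switched on by tamoxifen, so that epithelial cells keep Tmem173. By the study's methods both genotypes were on the C57BL/6N background and had 5 injections of tamoxifen. Mice of each genotype, 6 to 8 weeks old, drank either plain water or dextran sulfate sodium (DSS, which injures the colonic epithelium) for 7 days, followed by 1 day of water. The colitic Tmem173iΔmye libraries carry the replicate numbers 1, 2 and 5.

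CDX1 and CDX2 are homeobox factors of the caudal family. CDX2 is the master regulator of intestinal identity, and both activate genes of the enterocyte. HNF4α and HNF4γ are closely related nuclear receptors that drive brush border and lipid handling genes. KLF4 and KLF5 are zinc-finger factors with opposed roles, KLF4 in differentiated surface and goblet cells and KLF5 in the dividing cells of the crypt. The vitamin D receptor VDR switches on calcium transport genes when it binds calcitriol. The pregnane X receptor PXR, encoded by Nr1i2, responds to foreign compounds and bile acids by inducing detoxifying enzymes and transporters.

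The sequence before the start of transcription is shown for those of the 8 genes with an entry that was used, which include 3 of the 4 called with DSS. RefSeq entries (GRCm38.p6, 6 in all) were used for 5 of the 8 genes, namely Cdx2, Hnf4a with 2 starts, Klf4, Nr1i2 and Vdr. Each sequence covers the 200 bases from 250 to 51 bases before the annotated start and is written 5′ to 3′ on the strand of the gene. The 2 Hnf4a starts give transcripts with different first exons, and counts per gene cannot tell them apart. The Vdr window and the downstream Hnf4a window lie inside the gene models given below, before internal starts. No sequence is shown for Cdx1, Hnf4g or Klf5. Vdr and Nr1i2 are shown as a pair because Vdr was called with DSS in Tmem173fl/fl mice and its sister receptor was not. Capitals mark every match, on either strand, to CACCC (the KLF box), GGGCGG (the GC box), CAAAG (HNF4 core), TTTAT (CDX core), AGGTCA (nuclear receptor core) or GTTAAT (HNF1 core). None of these letter strings contains another.
Cdx2, chr5:147307300-147307499, minus strand: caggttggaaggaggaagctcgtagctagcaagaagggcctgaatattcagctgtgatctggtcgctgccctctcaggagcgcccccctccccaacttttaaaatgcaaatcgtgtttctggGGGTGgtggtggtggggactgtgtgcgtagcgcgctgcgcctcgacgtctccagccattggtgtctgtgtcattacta
Hnf4a upstream start, chr2:163506607-163506806, plus strand: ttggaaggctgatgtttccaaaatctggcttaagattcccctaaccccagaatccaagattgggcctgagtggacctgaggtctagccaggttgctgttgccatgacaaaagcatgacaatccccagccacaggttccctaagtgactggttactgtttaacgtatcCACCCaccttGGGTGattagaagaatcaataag
Hnf4a downstream start, chr2:163546905-163547104, plus strand: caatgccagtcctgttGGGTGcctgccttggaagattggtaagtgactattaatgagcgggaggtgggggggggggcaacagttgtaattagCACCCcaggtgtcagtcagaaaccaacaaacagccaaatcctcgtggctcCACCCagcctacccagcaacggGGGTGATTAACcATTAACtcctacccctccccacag
Klf4, chr4:55532526-55532725, minus strand: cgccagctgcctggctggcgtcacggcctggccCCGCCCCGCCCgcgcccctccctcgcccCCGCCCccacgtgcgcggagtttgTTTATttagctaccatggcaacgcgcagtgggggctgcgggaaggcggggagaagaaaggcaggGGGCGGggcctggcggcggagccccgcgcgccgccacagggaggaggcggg
Vdr, chr15:97908347-97908546, minus strand: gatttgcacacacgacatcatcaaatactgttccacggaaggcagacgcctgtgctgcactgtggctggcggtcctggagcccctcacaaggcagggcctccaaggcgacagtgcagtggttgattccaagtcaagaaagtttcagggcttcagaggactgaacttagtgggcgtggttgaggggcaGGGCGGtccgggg
Nr1i2, chr16:38294875-38295074, minus strand: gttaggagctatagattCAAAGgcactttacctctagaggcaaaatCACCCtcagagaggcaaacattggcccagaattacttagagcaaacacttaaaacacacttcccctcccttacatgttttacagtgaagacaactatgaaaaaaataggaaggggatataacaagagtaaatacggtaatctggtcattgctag

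The CACCC box occurred 4 times before the downstream Hnf4a start, 2 times before the upstream one, 1 time each before Cdx2 and Nr1i2 and not in the Vdr or Klf4 windows. It was present in 44.4% of 32851 promoter windows of the same length. The downstream Hnf4a window also held 2 matches to GTTAAT, found in 5.3% of windows. Part of that window lies in an exon of an annotated non-coding Hnf4a transcript, and the other windows overlap no exon. Vdr held 1 GC box and Klf4 held 4, against a share of 24.6% of windows with any. Nr1i2 had 1 match to CAAAG (42.3% of windows) and Klf4 had 1 match to TTTAT (31.6%). AGGTCA, present in 11.4% of windows, was in none of the 6. The windows also differed in composition. Klf4 was 76.5% G and C with 24 CpG dinucleotides, whereas Nr1i2 was 39.5% with 1 and the upstream Hnf4a window was 47.5% with 1. The median of all windows was 51.5% with 4 CpG. A match is a description of the letters and not a binding site.

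By gene model (GRCm38), Cdx1 lies at chr18:61018862-61036199 on the minus strand and Cdx2 at chr5:147300805-147307270 on the minus strand. Hnf4a lies at chr2:163506808-163572910 and Hnf4g at chr3:3508030-3658052, both on the plus strand. Klf4 lies at chr4:55527143-55532466 (minus) and Klf5 at chr14:99298691-99315036 (plus). Vdr lies at chr15:97854425-97910630 and Nr1i2 at chr16:38248323-38294824, both on the minus strand. Hnf4a overlaps Hnf4aos and Gm25881, which had at most 7 counts in any library, and Hnf4g overlaps Gm37000 and Gm23237, with at most 8, and whether strand was used in counting is not given in the sources used here. The other 6 genes overlap no gene of the table.

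Library totals ran from 13823237 to 18718915 counts, and all 8 genes were well covered, from 141 counts of Hnf4g to 17955 counts of Hnf4a. Values are given as CPM, counts scaled to library size with TMM factors, or as FPKM, which also divides by gene length. The defining marker of epithelium was abundant. In untreated Tmem173fl/fl mice Krt8 was at 5198 ± 687 CPM (SD, n = 3). Squamous epithelium was near absent, with the 12 squamous markers summing to between 3.99 and 14.3 CPM in any library and Krt5 at 0.7 CPM or less. Pancreatic genes varied within every group, their 10 markers summing to between 103 and 12310 CPM, and the acinar enzyme gene Cpa1 ran from 45.3 to 725 CPM in the 3 colitic Tmem173fl/fl libraries and from 0.0 to 988 CPM in the others. Their part in the results below was not tested. Xist was at 20384 to 29356 counts in 3 libraries and at 8 or fewer in the others. The 3 were the untreated libraries numbered 3, 1 of each genotype, and library 5 of Tmem173iΔmye mice given DSS. Ddx3y, a gene of the Y chromosome, had 0 counts in these 3 libraries and 842 to 1824 in the others. By these genes the 3 mice read as female, though the labels give no sex. The colitic Tmem173fl/fl group held none of the 3. In colitis Tmem173 itself stood at 41.4 ± 3.30 CPM without Cre and at 34.2 ± 12.3 CPM with it (log2 fold change -0.28, edgeR adjusted p = 0.602). Without DSS the values were 20.6 ± 5.46 and 17.7 ± 3.4 CPM. The paper reports by qPCR that the myeloid knockout lowered the rise of Tmem173 mRNA in inflamed colon. These counts pool the RNA of all cells of the colon, and the deletion targets only the myeloid ones. Why no difference was called here was not tested.

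The order of the 8 genes per transcript length was read in untreated Tmem173fl/fl mice. Klf4 stood highest at 243 ± 52.8 FPKM (SD, n = 3) and Hnf4a followed at 211 ± 28.8 FPKM. The libraries of these 2 genes overlapped. Cdx1 came next at 133 ± 11.9 FPKM, below every Hnf4a library. Klf5 at 88.2 ± 2.83 FPKM, Cdx2 at 87.6 ± 27.5 FPKM and Vdr at 74.3 ± 5.05 FPKM formed the middle of the order, where Cdx2 overlapped both of its neighbours. Nr1i2 at 24.1 ± 0.951 FPKM and Hnf4g at 10.2 ± 2.98 FPKM stood lowest, each apart from the gene above it. Within the HNF4 pair the α gene therefore exceeded the γ gene in every library, by 10.3-fold to 34.8-fold. The plot of FPKM by gene shows that the top 3 and the bottom 2 places were held by the same genes in all 4 groups. In colitic Tmem173fl/fl mice the libraries of every neighbouring pair overlapped except Nr1i2 and Hnf4g.

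**Figure D1:**
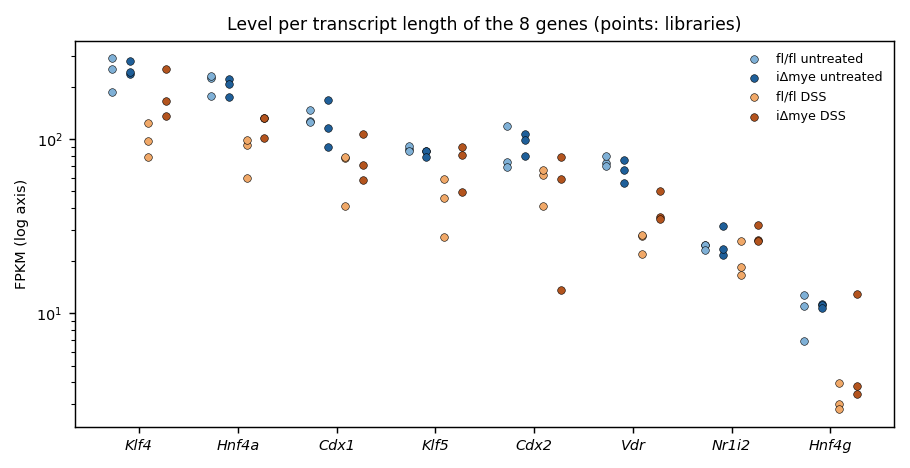
FPKM on a log axis of the 8 genes in the 12 libraries, with 1 point per library and colours for the 4 groups. Klf4 and Hnf4a stand highest and Hnf4g lowest, at 10.2 FPKM in untreated Tmem173fl/fl mice.

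The comparison of colitic with untreated Tmem173fl/fl mice asks how these factors respond to epithelial injury when STING is intact. All 8 had a negative log2 fold change, and 4 of them, Vdr, Hnf4a, Hnf4g and Klf4, fell by the rule used throughout (edgeR quasi-likelihood test, p adjusted by Benjamini-Hochberg over all genes to under 0.05, and a change of 1 or more on the log2 scale). Of all genes tested, 7.61% were called lower and 14.9% higher, and no member was called higher. At adjusted p alone 6 members were lower, against 16.0% of all genes. The libraries of 7 members did not overlap between the groups, all lower in colitis, against 25.4% of all genes. The median log2 fold change was -1.13 over the members and 0.03 over all genes. In whole tissue, fewer epithelial cells and less RNA of a gene per cell cannot be told apart.

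Vdr fell most clearly. It was at 424, 464 and 405 CPM in untreated and 156, 123 and 156 CPM in colitic Tmem173fl/fl mice, and no colitic library came near an untreated one. Its log2 fold change was -1.5 with a standard error (SE) of 0.152 (edgeR adjusted p = 5.48e-05). Nr1i2, the sister receptor, was at 65.0, 64.6 and 60.0 CPM in untreated and 46.4, 41.9 and 65.4 CPM in colitic mice. The groups overlapped, since replicate 3 of the colitic group was above all 3 untreated libraries, and the log2 fold change of -0.24 (SE 0.169, edgeR adjusted p = 0.317) was not past the threshold. Without that replicate Nr1i2 was at -0.47 (edgeR adjusted p = 0.0295), still under the fold minimum.

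Both HNF4 genes fell. Hnf4a was at 1111, 1145 and 876 CPM in untreated and 439, 287 and 469 CPM in colitic mice. Every colitic library was below every untreated one, with a log2 fold change of -1.32 (SE 0.206, edgeR adjusted p = 0.000792). Hnf4g was at 18.6, 29.7 and 34.0 CPM in untreated and 7.80, 7.34 and 10.3 CPM in colitic mice, the largest fold among the 8 at -1.63 (SE 0.249, edgeR adjusted p = 0.000705). The ratio of Hnf4a to Hnf4g in FPKM within a library differed between the groups by 0.25 on the log2 scale (exact two-sided permutation p = 0.6), less than the spread of either group.

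Of the zinc-finger factors, Klf4 was at 913, 789 and 580 CPM in untreated and 292, 239 and 371 CPM in colitic mice, a log2 fold change of -1.27 (SE 0.213, edgeR adjusted p = 0.00124). Klf5 varied little without DSS, at 471, 487 and 454 CPM, and was at 236, 142 and 304 CPM in colitis. Its log2 fold change of -0.98 (SE 0.239, edgeR adjusted p = 0.00958) passed the test of significance and missed the fold minimum. The Klf4 to Klf5 ratio differed by -0.22 on the log2 scale (exact two-sided permutation p = 0.4).

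Neither CDX gene was called. Cdx1 was at 264, 228 and 222 CPM in untreated and 135, 71.3 and 136 CPM in colitic mice (log2 fold change -0.99, SE 0.231, edgeR adjusted p = 0.0075). Cdx2 was at 173, 277 and 160 CPM in untreated and 140, 92.1 and 147 CPM in colitic mice. These groups did not overlap, but the log2 fold change of -0.62 (SE 0.238) had an edgeR adjusted p of 0.0698. It was -0.34 (edgeR adjusted p = 0.269) without untreated replicate 2 and -0.76 (edgeR adjusted p = 0.047) without colitic replicate 3. Cdx1 and Klf5 sat on the fold minimum, so the number called was 4 to 6 when a library was left out, 5 with DESeq2, 6 with limma and 5 without the Xist libraries.

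**Figure D2:**
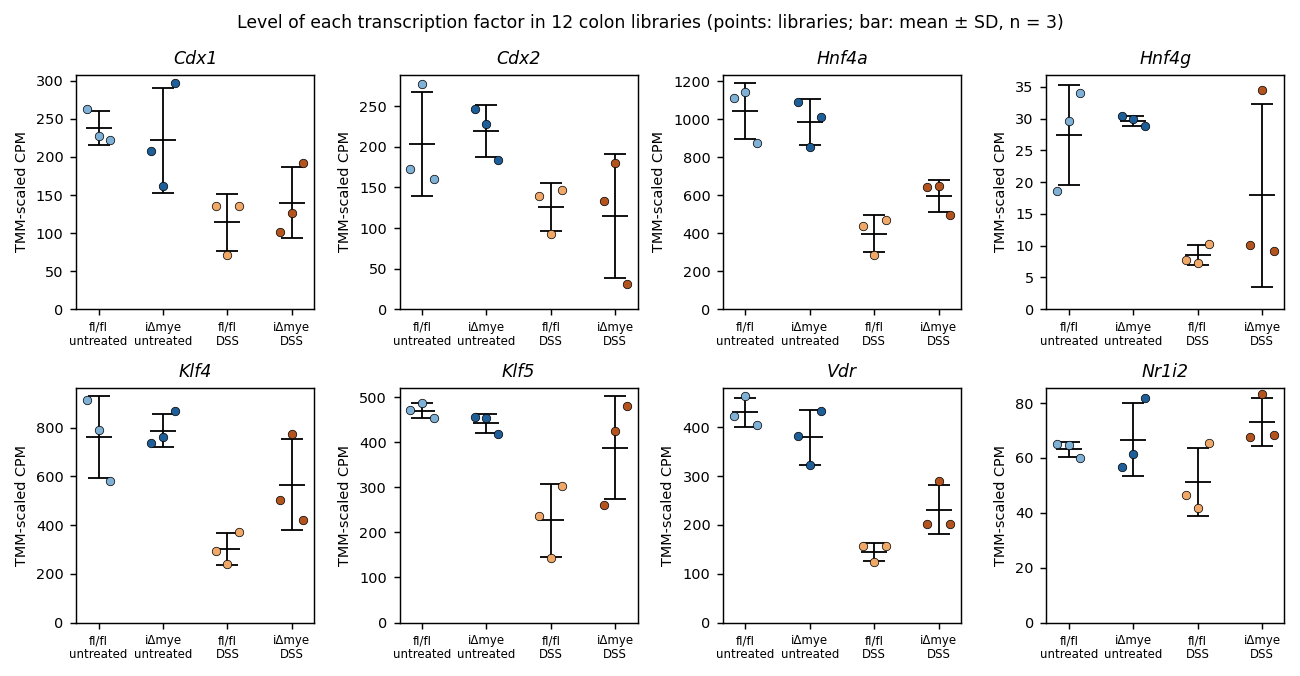
TMM-scaled CPM of each of the 8 genes, with 1 point per library, the mean as a bar and the SD as whiskers (n = 3). In the colitic Tmem173fl/fl group 7 of the 8 genes lie below all untreated Tmem173fl/fl libraries, and Nr1i2 does not.

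Markers of the tissue's cell types moved in the same comparison. All 12 epithelial structural genes had a negative log2 fold change, with a median of -1.10, and 7 were called lower. Epcam, the pan-epithelial adhesion molecule, was at 1688 ± 96.0 CPM in untreated and 697 ± 199 CPM in colitic Tmem173fl/fl mice. Rab25 fell by 1.62, Ap1m2 by 1.42 and Cdh1 by 1.26 on the log2 scale, with edgeR adjusted p from 0.000184 to 0.00124. The summed level of the 12 genes ran from 12050 to 14920 CPM in untreated and from 4448 to 7687 CPM in colitic Tmem173fl/fl mice. All 8 fibroblast and all 8 endothelial markers rose, among them Dcn by 3.35, Col3a1 by 2.90 and Cdh5 by 2.84, and 5 of 10 leukocyte markers rose. Ptprc, the gene of CD45, had a log2 fold change of -0.10 and Myh11 of smooth muscle 0.27, and neither was called.

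The 8 genes were therefore also read against the 12 epithelial structural genes, as log2 CPM of a gene minus the mean log2 CPM of the 12. On this scale an exact permutation test of 3 against 3 libraries cannot go below 0.1, and over the 32 comparisons made (8 genes, 4 pairs of groups) the smallest adjusted p was 0.533. Relative to the epithelial genes, Cdx1 differed by 0.02 and Klf5 by 0.02 between colitic and untreated Tmem173fl/fl mice. Klf4 differed by -0.20, Hnf4a by -0.27, Vdr by -0.44 and Hnf4g by -0.53. The libraries of Hnf4a and Vdr did not overlap (exact permutation p = 0.1 for both). Cdx2 was higher by 0.47 with overlapping groups, and Nr1i2 was higher by 0.81 without overlap (exact permutation p = 0.1). Nr1i2 stood at -3.27, -3.26 and -3.13 in untreated and -2.60, -2.24 and -2.40 in colitic libraries. With Epcam alone as the reference the differences were -0.10 for Hnf4a, -0.26 for Vdr and 0.99 for Nr1i2.

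When the counts were scaled on the 12 epithelial genes instead of by TMM, no member was called. The median of all genes then stood at 1.12 in this comparison. Vdr was at -0.43 (edgeR adjusted p = 0.176), Hnf4g at -0.59 (0.191), Hnf4a at -0.27 (0.351) and Klf4 at -0.21 (0.509). The signs of Cdx1, Cdx2, Klf5 and Nr1i2 were then positive. Nr1i2 reached 0.82 (edgeR adjusted p = 0.0158), under the fold minimum of 1 and below the median of all genes on that scale.

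**Figure D3:**
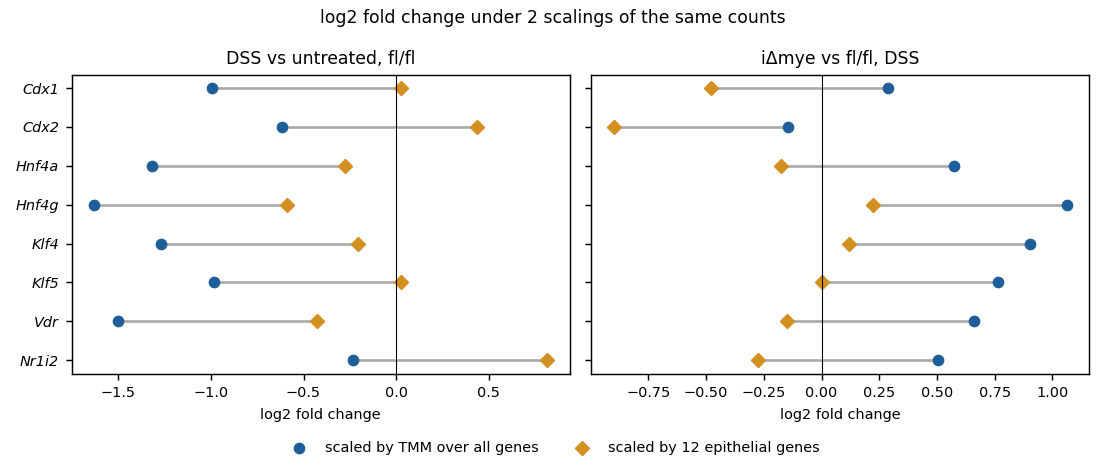
log2 fold change of the 8 genes for DSS in Tmem173fl/fl mice (left) and for genotype in colitis (right), scaled by TMM (circles) or by 12 epithelial structural genes (diamonds). For DSS in Tmem173fl/fl mice Vdr moves from -1.5 to -0.43 and Nr1i2 from -0.24 to 0.82.

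In Tmem173iΔmye mice the same DSS course was compared with untreated mice of that genotype. No member was called, where 0.597% of all genes were called lower and 1.48% higher. Of the 8 genes 7 had a negative log2 fold change. The median was -0.695 over the members and 0.02 over all genes. DESeq2 and limma also called none. Without adjustment 3 members had an edgeR p under 0.05, namely Cdx1, Hnf4a and Vdr, as had 15.6% of all genes in either direction. Hnf4a was at 1090, 856 and 1013 CPM in untreated and 642, 650 and 498 CPM in colitic mice (log2 fold change -0.73, SE 0.206, edgeR adjusted p = 0.112). Vdr was at 382, 322 and 434 CPM in untreated and 202, 289 and 201 CPM in colitic mice (-0.72, SE 0.224, edgeR adjusted p = 0.148). Hnf4a, Vdr and Cdx2 did not overlap between the groups, against 9.41% of all genes lower without overlap.

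The colitic Tmem173iΔmye libraries disagreed with each other on several members. Hnf4g was at 30.3, 29.9 and 28.8 CPM in untreated mice and at 10.1, 34.5 and 9.23 CPM in replicates 1, 2 and 5 of the colitic group, so replicate 2 lay above every untreated library. With that library left out Hnf4g was called, the 1 member that was, at -1.61 (edgeR adjusted p = 0.0208), compared with -0.73 (edgeR adjusted p = 0.478) with it. The genotype difference of Hnf4g in colitis fell from 1.06 to 0.19 when it was left out. Klf4 was at 738, 761 and 867 CPM in untreated and 501, 776 and 422 CPM in colitic mice, again with replicate 2 highest. Klf5 was at 455, 455 and 418 CPM in untreated and 260, 424 and 481 CPM in colitic mice, with replicate 5 above all untreated libraries. Cdx1 was at 207, 162 and 297 CPM in untreated and 102, 126 and 192 CPM in colitic mice, and the groups overlapped. Nr1i2 was at 56.7, 61.4 and 81.9 CPM in untreated and 67.6, 83.3 and 68.3 CPM in colitic mice (log2 fold change 0.13, SE 0.205, edgeR adjusted p = 0.818). Relative to the epithelial genes Nr1i2 was higher by 0.48 in colitis, again without overlap (exact permutation p = 0.1). Klf5 differed by 0.10, Klf4 by -0.19, Cdx1 by -0.34, Hnf4a by -0.40, Vdr by -0.40, Hnf4g by -0.68 and Cdx2 by -0.92, all with overlapping groups. The Cdx2 value ran from -1.35 to -0.12 with a library left out. The median of the 8 was -0.37, beside -0.09 in Tmem173fl/fl mice. The summed level of the 12 epithelial genes was 12470 to 15100 CPM in untreated and 9590 to 11530 CPM in colitic libraries of this genotype, and none of the 12 was called. In the interaction 1 of them, Cdh1, was called (1.2, edgeR adjusted p = 0.0468), and 0 to 4 were called with a library left out.

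Without DSS no member separated the genotypes, and their libraries overlapped for all 8 genes. The log2 fold changes of Tmem173iΔmye against Tmem173fl/fl mice ran from -0.18 for Vdr to 0.12 for Cdx2 and Hnf4g, with SE from 0.130 to 0.202. No member had an unadjusted edgeR p under 0.05, where 2.99% of all genes did, and DESeq2 and limma also called none. The edgeR test called 0.0% of all genes here.

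The comparison of the genotypes in colitis asks whether the factors differ when STING is lost in myeloid cells. Of the 8 genes 7 were higher in Tmem173iΔmye mice, and none passed the test, where 0.822% of all genes were called higher and 1.99% lower. DESeq2 and limma called none either. Without adjustment 5 members had an edgeR p under 0.05, namely Klf4, Vdr, Nr1i2, Hnf4a and Klf5, as had 20.2% of all genes in either direction. The libraries of 4 of these, all except Klf5, did not overlap between genotypes, against 12% of all genes higher without overlap. Klf4 had the smallest unadjusted p, at 422 to 776 CPM in Tmem173iΔmye and 239 to 371 CPM in Tmem173fl/fl mice (log2 fold change 0.90, SE 0.275, edgeR adjusted p = 0.117). Vdr differed by 0.66 (SE 0.207, edgeR adjusted p = 0.125), Hnf4a by 0.58 (SE 0.243, 0.231), Nr1i2 by 0.50 (SE 0.204, 0.215) and Klf5 by 0.76 (SE 0.322, 0.231). Hnf4g had the largest difference at 1.06 and also a wide SE of 0.487 (edgeR adjusted p = 0.266). The colitic Tmem173fl/fl libraries used here are the same as in the DSS comparison, so the 2 sets of values are not independent.

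The interaction, which tests whether the DSS effect differed between genotypes, called no member, where 0.934% of all genes were called higher and 1.61% lower. DESeq2 and limma also called none. Vdr came closest at 0.85 (SE 0.262, edgeR adjusted p = 0.101). Without colitic replicate 1 of Tmem173iΔmye mice it was 0.94 (edgeR adjusted p = 0.0457), under the fold minimum. Klf4 at 0.86 and Klf5 at 0.86 had edgeR adjusted p of 0.21 and 0.23, and Hnf4a at 0.67 had 0.249. These 4 were the members with an unadjusted p under 0.05, as had 18.1% of all genes in either direction.

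The epithelial markers were set beside these values. The mean log2 CPM of the 12 epithelial genes was 8.06 ± 0.406 in colitic Tmem173fl/fl and 8.87 ± 0.196 in colitic Tmem173iΔmye mice, without overlap (exact permutation p = 0.1, the smallest possible, 0.133 adjusted over 4 comparisons). None of the 12 was called between these groups by edgeR and 4 were called higher by DESeq2. Of 8 fibroblast markers 6 were lower in Tmem173iΔmye mice, with log2 differences of -1.78 for Dcn and -1.73 for Col3a1. When a library was left out, 0 to 6 were called. Of 8 endothelial markers 2 were called lower (median log2 difference -1.28), and 0 to 6 with a library left out. Of 10 leukocyte markers 2 were called lower (median -0.23), and 0 to 2 with a library left out. No marker of either list was called higher. Relative to the epithelial genes Klf4 differed by 0.08, Klf5 by -0.01, Hnf4g by 0.01, Vdr by -0.15, Hnf4a by -0.20 and Nr1i2 by -0.27, all with overlapping groups, while Cdx2 differed by -1.25 without overlap (exact permutation p = 0.1) and Cdx1 by -0.50. The Cdx2 value was -0.44 without replicate 5 of the colitic Tmem173iΔmye group. Scaled on the epithelial genes, the signs of Cdx1, Hnf4a, Vdr and Nr1i2 in the genotype comparison turned negative, and the median of all genes stood at -0.80.

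**Figure D4:**
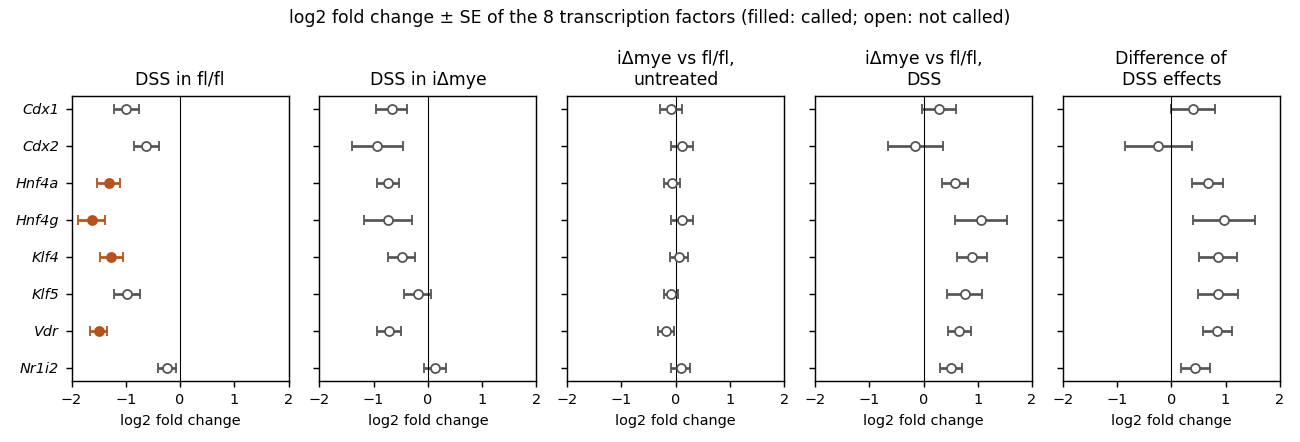
log2 fold change with its SE for each of the 8 genes in 5 comparisons (filled points passed adjusted p under 0.05 and the fold minimum of 1). The 4 filled points are Hnf4a, Hnf4g, Klf4 and Vdr for DSS in Tmem173fl/fl mice.

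Cdx2 varied widely between the libraries of the colitic Tmem173iΔmye mice. It was at 247, 228 and 184 CPM in untreated mice and at 133, 181 and 31.4 CPM in replicates 1, 2 and 5 of the colitic group (log2 fold change -0.93, SE 0.476, edgeR adjusted p = 0.387). That value was -0.46 without replicate 5 and -1.4 without replicate 2. Replicate 5, which is also 1 of the 3 libraries with high Xist counts, held 517 counts of Cdx2, against 1870 or more in every other library. In that same library Cdx1 was the highest of its group at 192 CPM. The genotype difference of Cdx2 in colitis was -0.15 with that library and 0.30 without it, and that of Cdx1 was 0.29 with it and -0.01 without it.

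The ratio of Cdx1 to Cdx2 within a library does not depend on scaling between libraries. It was 7.89 in FPKM in replicate 5 of the colitic Tmem173iΔmye group, and it was 0.987 and 0.902 in the other libraries of that group. Untreated Tmem173fl/fl libraries stood at 1.97, 1.06 and 1.8 and untreated Tmem173iΔmye libraries at 1.09, 0.917 and 2.09. Colitic Tmem173fl/fl libraries stood close together, between 1.0 and 1.25. The groups overlapped in all 4 comparisons, with exact permutation p from 0.3 to 1.0 before adjustment over the 12 ratio comparisons. Without replicate 5 the log2 difference between the colitic genotypes turned from 0.75 to -0.28, and that for DSS in Tmem173iΔmye mice from 0.59 to -0.44.

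Hox genes, whose products pattern the gut along its length, varied across the same libraries. HOXB13 and HOXD13 are factors of the hindmost gut. Hoxd13 was at 183 CPM in replicate 5 of the colitic Tmem173iΔmye group and at 8.0 and 2.4 CPM in the other libraries of that group. It was at 88.0 CPM in replicate 3 of untreated Tmem173iΔmye mice and at 45.0, 5.1 and 17.5 CPM in untreated Tmem173fl/fl mice. The 4 libraries with the highest Cdx1 to Cdx2 ratio were thus the 4 with the highest Hoxd13, a gene singled out after its values were seen. All 3 libraries with high Xist counts, replicate 5 among them, were among these 4. Hoxb13 was at 252, 139 and 190 CPM in untreated and 4.9, 0.7 and 0.6 CPM in colitic Tmem173fl/fl mice (log2 fold change -6.45, SE 0.672, edgeR adjusted p = 6.56e-05). Hoxb6 moved the other way, from 1.7, 8.1 and 1.8 CPM to 29.1, 24.7 and 33.0 CPM (2.98, SE 0.512, edgeR adjusted p = 0.00142). Of the 11 Hox genes listed, 4 rose and 3 fell in that comparison, and with a library left out 4 to 6 rose and 2 to 4 fell. Between the genotypes in colitis Hoxb13 (5.28, edgeR adjusted p = 0.0455) and Hoxa13 (1.6, edgeR adjusted p = 0.0227) were called higher in Tmem173iΔmye mice, as they were in the interaction (5.69 and 1.62). For genotype in colitis no Hox gene was called without replicate 2 of the Tmem173iΔmye group or without any 1 of the 3 Tmem173fl/fl libraries, and 1 was without replicate 5. In the interaction 1 or 2 were called higher with a library left out, and none without the 3 Xist libraries. Their part in the results for the 8 members was not tested.

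**Figure D5:**
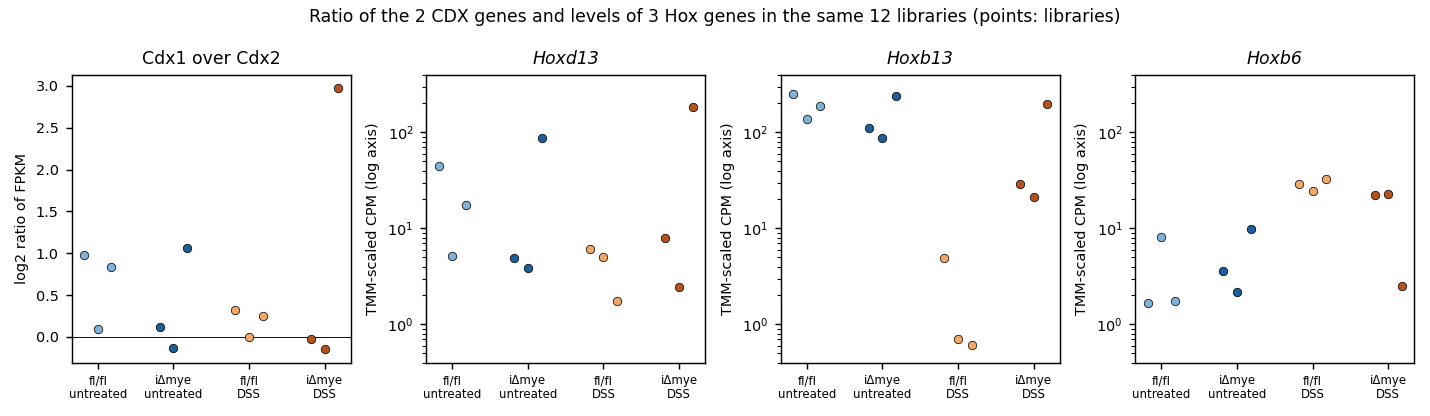
log2 ratio of Cdx1 to Cdx2 in FPKM (left) and CPM of Hoxd13, Hoxb13 and Hoxb6 on log axes, with 1 point per library. Replicate 5 of the colitic Tmem173iΔmye group has the highest ratio, 2.98 on the log2 scale, and the highest Hoxd13, at 183 CPM.

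Genes known as targets of these factors were read from lists made from general knowledge. For DSS in Tmem173fl/fl mice 7.61% of all genes were called lower and 14.9% higher, and these shares apply to each target list. Of 22 tested targets of CDX and HNF4 factors, 7 fell and 3 rose with DSS when STING was intact, and the median log2 fold change was -0.63. The 3 largest falls were those of Slc26a3, Aqp8 and Car4. Slc26a3, the chloride and bicarbonate exchanger, went from 769 ± 88.8 to 111 ± 37.1 CPM (log2 fold change -2.73, edgeR adjusted p = 3.25e-05). Aqp8, a water channel, went from 489 ± 101 to 83.9 ± 29.7 CPM, and Car4, a carbonic anhydrase of the brush border, from 677 ± 38.8 to 156 ± 26.4 CPM. Car1, another carbonic anhydrase, rose from 556 ± 302 to 1639 ± 265 CPM (1.63, edgeR adjusted p = 0.00293). Mttp, which loads lipid onto lipoproteins, rose from 4.35 ± 0.956 to 8.62 ± 3.74 CPM. Without replicate 3 of the untreated Tmem173fl/fl group 1 of the 22 was called higher and 8 lower.

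Some of the same targets were called between the colitic genotypes. In Tmem173iΔmye mice 4 were higher and 1 lower, with a median log2 fold change of 0.61 beside 0.02 over all genes. No target was called lower when any 1 library was left out. Car4 was at 978, 571 and 459 CPM in the Tmem173iΔmye and at 175, 125 and 167 CPM in the Tmem173fl/fl libraries (log2 fold change 2.1, SE 0.317, edgeR adjusted p = 0.0185). The groups did not overlap, and the Tmem173iΔmye libraries overlapped those of untreated mice. Slc26a3 differed by 1.84 (edgeR adjusted p = 0.0332) and the transmembrane mucin gene Muc13 by 1.56 (edgeR adjusted p = 0.0467). No target was called with limma, or when edgeR was run without replicate 2 of the colitic Tmem173iΔmye group or without any 1 of the 3 colitic Tmem173fl/fl libraries. In the interaction Car4 (2.15, edgeR adjusted p = 0.00766), Slc26a3 (1.86, 0.034) and Muc13 (1.78, 0.0263) were among 4 targets called, a number that ran from 2 to 6 with a library left out. It was 6 without colitic replicate 5 of Tmem173iΔmye mice, and 2 without untreated replicate 1 or 3 or colitic replicate 1 of Tmem173fl/fl mice or any 1 untreated Tmem173iΔmye library.

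Among 7 tested genes listed as VDR targets, 2 fell and 1 rose with DSS in Tmem173fl/fl mice. The rise was that of Camp, from 0.021 ± 0.036 to 1.2 ± 0.48 CPM, a low level in both groups. Whether VDR acts on the listed genes in these mice was not tested. Trpv6, the apical calcium channel gene, had 296, 268 and 368 counts in untreated and 2, 4 and 2 counts in colitic Tmem173fl/fl libraries (edgeR adjusted p = 6.08e-07). In colitic Tmem173iΔmye mice it had 29, 11 and 537 counts, replicate 5 standing above all other libraries. S100g, the calcium-binding calbindin of enterocytes, had 64, 34 and 203 counts in untreated and 5, 12 and 32 in colitic Tmem173fl/fl mice (log2 fold change -2.71, SE 0.765, edgeR adjusted p = 0.0196). The number of falls was 1 without untreated replicate 3 or colitic replicate 1 of Tmem173fl/fl mice, and 4 without colitic replicate 3.

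Of 11 tested PXR targets, 3 rose and none was called lower with DSS in Tmem173fl/fl mice (median log2 fold change 0.11). Cyp3a13 (-0.84), Abcc3 (-0.82) and Gstm1 (-0.56) had edgeR adjusted p from 0.00911 to 0.0224 and missed the fold minimum. Ugt1a1, which conjugates bilirubin, rose from 5.32 ± 2.92 to 17.6 ± 4.28 CPM (1.79, edgeR adjusted p = 0.00519), and Gsta1, a glutathione transferase, from 4.73 ± 1.49 to 9.43 ± 2.71 CPM (1.06, edgeR adjusted p = 0.0205). Leaving out libraries gave 2 to 4 higher, and gave 1 lower without untreated replicate 3 and 2 lower without colitic replicate 3. In Tmem173iΔmye mice the glutathione transferase gene Gstm1 fell with DSS from 187.2 ± 10.5 to 81.3 ± 17.3 CPM (edgeR adjusted p = 0.0193), and the list held no lower call there when any 1 of the 3 untreated libraries was left out.

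Of 9 cell cycle and differentiation genes tied to the KLF factors, 4 fell and 2 rose with DSS in Tmem173fl/fl mice, and these counts did not change when any library was left out. Ccnb1 went from 47.9 ± 11.8 to 10.46 ± 3.47 CPM (log2 fold change -2.12, edgeR adjusted p = 0.000261), Mki67 from 390 ± 51.9 to 106 ± 42.0 CPM and Cdk1 from 44.6 ± 7.30 to 12.1 ± 1.55 CPM. The cell cycle inhibitor gene Cdkn1c rose by 1.36 and Alpi, the intestinal alkaline phosphatase, by 1.87. In Tmem173iΔmye mice Ccnb1 (-1.34, edgeR adjusted p = 0.0225) and Mki67 (-1.21, edgeR adjusted p = 0.026) also fell, and no gene of the list was called there when any library but colitic replicate 5 was left out. Ccnd1, which encodes cyclin D1, differed between the genotypes in colitis, being higher with Cre by 1.1 (edgeR adjusted p = 0.0267). It was not called without replicate 2 of the Tmem173iΔmye group or without any 1 of the 3 Tmem173fl/fl libraries.

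Finally, the genes with the most similar pattern over the 12 libraries were listed for each member, from 14557 genes with a mean FPKM of at least 1, by Pearson correlation of log2(CPM + 0.5). The libraries share their group means, so the correlation of deviations from those means is given second. For Hnf4a the closest genes were Ppip5k1 (0.983 and 0.915), Lnx1 (0.978 and 0.908) and Slc35e1 (0.977 and 0.904). For Hnf4g they were Sco1 (0.978 and 0.96), Mecom and Tmem56. For Klf4 they were Tmem164 (0.983 and 0.914), Vil1, the villin gene of the brush border (0.978 and 0.92), and Sdha. For Klf5 they were Cldn12 (0.985 and 0.953), Gata6, a transcription factor of the gut epithelium (0.978 and 0.94), and Rab25 (0.974 and 0.948). Vdr was most like Prkcd (0.983 and 0.755), Pla2g3 and 2610507B11Rik. For Cdx1 the closest were Mfsd13a (0.964 and 0.941), Pkp1 and Lonrf3, and for Cdx2 they were Dpep1 (0.964 and 0.94), Chd7 and Sstr1. By the first correlation Nr1i2 had the least close neighbours, Elmo3 (0.92 and 0.858), Pdzd3 and Slc52a3. By the second, the lowest values were those of Vdr with Prkcd (0.755) and Pla2g3 (0.773). No gene was among the 3 closest of more than 1 member.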

How the data were processed

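RNA was extracted from colon, selected for polyA and sequenced, 1 library per mouse. Per the labels, the submitters' processing notes name CASAVA 1.8, fastp, HISAT2 2.0.5, featureCounts 1.5.0-p3 and DESeq2 1.20.0 with GRCm38. The authors deposited whole-number counts per gene and FPKM values, which divide counts by gene length and library total. Columns of the authors' own group means, fold changes and p-values were not used. The study calls Tmem173fl/fl controls littermates in a colitis experiment, but the labels tie no library to a litter, and p-values measure the spread between these libraries only.

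The 8 genes and all gene lists were chosen with earlier results of these data known. The 24102 of 54532 genes that reached 0.1 FPKM in 3 or more of the 12 libraries were tested with edgeR 4.0.16 (quasi-likelihood, TMM, R 4.3.3), using only the 2 groups compared, or all 12 libraries for the interaction. Calls needed p below 0.05 after Benjamini-Hochberg adjustment and a change of 1 or more, up or down, on the log2 scale. The SE is the log2 fold change divided by the square root of F. Ratios within a library used exact two-sided permutation tests. Of each list, up to 3 called genes higher and 3 lower with the largest fold and a mean FPKM of at least 1 were named, together with the defining markers Epcam, Krt8, Ptprc, Myh11, Krt5 and Cpa1. Some genes that meet this rule are not reported here. Alternatives were other scalings, filters, tests (DESeq2 1.42.0, limma 3.58.1 on log2 FPKM), thresholds, a replicate block, each library left out and, added after the data were seen, the 3 libraries with Xist counts left out. The test was tried on simulated data first.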

Additional observations from a re-analysis of the deposited data

How the results depend on the processing

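The number of members called for DSS in mice without Cre was 4, and 4 to 6 under every alternative tried except scaling on the 12 epithelial genes, which gave 0. Leaving out each library gave 4 to 6. For DSS in Tmem173iΔmye mice the number was 0, and 0 to 1 when a library was left out. It was 0 for both genotype comparisons and the interaction under every alternative. The direction of single members turned under epithelial scaling for DSS in Tmem173fl/fl mice (Cdx1 0.028, Cdx2 0.44, Klf5 0.024, Nr1i2 0.82), for DSS in Tmem173iΔmye mice (Klf5 0.11), for genotype in colitis (Cdx1 -0.48, Hnf4a -0.18, Vdr -0.15, Nr1i2 -0.27) and in the interaction (Cdx1 -0.37, Hnf4a -0.11, Nr1i2 -0.34). Without the 3 libraries with Xist counts, chosen after the data were seen, Klf4 (-0.17) and Nr1i2 (-0.12) turned in the untreated genotype comparison, Cdx1 (-0.012) and Cdx2 (0.30) in colitis and Cdx2 (0.20) in the interaction. With single libraries left out, log2 fold changes for genotype without DSS ran from -0.36 to 0.095 for Cdx1, -0.029 to 0.41 for Cdx2, -0.19 to 0.021 for Hnf4a, -0.094 to 0.31 for Hnf4g, -0.10 to 0.21 for Klf4 and -0.090 to 0.19 for Nr1i2. Those for genotype in colitis ran from -0.012 to 0.46 for Cdx1 and -0.61 to 0.30 for Cdx2, those of the interaction from -0.73 to 0.18 for Cdx2, and for Klf5 under DSS with Cre from -0.35 to 0.033. The cause was not tested.

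Over all genes, edgeR called 3589 higher and 1833 lower for DSS in Tmem173fl/fl mice, and epithelial scaling gave 10596 and 380, while limma with a pseudocount of 1 called 2848 in all. For DSS with Cre 357 and 144 became 722 and 60, for genotype in colitis 198 and 480 became 116 and 4074, and in the interaction 225 and 389 became 76 and 2357. DESeq2 called 1137, 1619 and 1375 genes in these 3 comparisons against 501, 678 and 614, and 8 against 0 for genotype without DSS, while limma with a pseudocount of 0.1 called 62, 140 and 497. With 1 library left out, DSS with Cre ran from 51 calls (without untreated replicate 2) to 1469 (without colitic replicate 5). Genotype in colitis ran from 27 (without Tmem173fl/fl replicate 1) to 1593 (without Tmem173iΔmye replicate 1). The interaction ran from 267 (without untreated Tmem173fl/fl replicate 1) to 1728 (without colitic Tmem173iΔmye replicate 1). The shares of all genes given beside the members use every library.

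Same-numbered libraries did not deviate together (correlations of deviations from group means from -0.172 to 0.184), so replicate numbers were not taken as pairs. With a replicate block the DSS comparison without Cre held 6 called members and there were 0 in the other comparisons, and Cdx2 turned to 0.44 for genotype in colitis and 0.11 in the interaction. With 3 libraries per group and SE from 0.130 to 0.620 on the log2 scale, differences larger than the SE could also go uncalled. Klf4 for genotype in colitis, at 0.90 with an SE of 0.275, had an edgeR adjusted p of 0.117. With single libraries left out, the log2 difference in the Cdx1 to Cdx2 ratio for genotype in colitis ran from -0.28 to 1.29, that of Hnf4a to Hnf4g from -0.54 to 0.34 and that of Klf4 to Klf5 from -0.11 to 0.46.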

Other observations

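Other factors of the colonic epithelium were read for DSS in Tmem173fl/fl mice. Of 27 tested, 9 fell and 4 rose, with a median log2 fold change of -0.82. Of all genes 7.61% were called lower and 14.9% higher, with a median of 0.03, so the rises were near the share of all genes. The same shares apply to the KLF genes and nuclear receptors below. Ascl2, the factor of crypt stem cells, went from 5.94 ± 1.10 to 0.371 ± 0.212 CPM (log2 fold change -3.96, edgeR adjusted p = 7.21e-05), Foxa2 from 41.8 ± 9.48 to 6.72 ± 2.30 CPM (-2.57, edgeR adjusted p = 6.99e-05) and Ehf from 563 ± 41.5 to 139.9 ± 50.4 CPM (-1.94, edgeR adjusted p = 0.000201). Creb3l3 rose by 2.31, Maf by 1.85 and Isx by 1.53 (edgeR adjusted p from 5.49e-05 to 0.049). Elf3 was called between the genotypes in colitis, at 513 ± 42.4 CPM with Cre and 253 ± 51.4 CPM without it (1.01, edgeR adjusted p = 0.045). No gene of this list was called there when any library but replicate 1 of the colitic Tmem173iΔmye group was left out. In the interaction Elf3 was called (1.07, edgeR adjusted p = 0.047), and 0 to 4 genes of the list were called with a library left out.

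Of 13 other KLF genes tested, 4 rose and 2 fell with DSS in Tmem173fl/fl mice. Klf2, which is expressed in endothelium and leukocytes, went from 15.3 ± 5.07 to 81.1 ± 5.32 CPM (2.48, edgeR adjusted p = 3.13e-05), Klf15 rose by 2.80 and Klf11 by 1.60, while Klf12 fell by 1.29 and Klf3 by 1.01. The number of falls was 1 without untreated replicate 3 or colitic replicate 2. In colitis Klf2 was lower with Cre than without (-1.55, edgeR adjusted p = 0.0444), and the list held no call when any library but replicate 1 of the Tmem173iΔmye group was left out. Of 21 other nuclear receptors, 4 fell and 2 rose, with 2 falls without colitic replicate 2 and 1 rise without untreated replicate 1 or colitic replicate 3. Esrrg went from 16.4 ± 6.32 to 0.36 ± 0.107 CPM (-5.44, edgeR adjusted p = 9.23e-06), the mineralocorticoid receptor gene Nr3c2 from 141 ± 13.0 to 48.6 ± 8.07 CPM (-1.47, edgeR adjusted p = 7.91e-05), and Nr5a2 fell by 1.15. The bile acid receptor gene Nr1h4 rose from 43.4 ± 7.54 to 84.1 ± 24.5 CPM (1.02, edgeR adjusted p = 0.00429). Esrrg (3.85, edgeR adjusted p = 0.0206) and Nr3c2 (1.18, edgeR adjusted p = 0.0156) were also called in the interaction, where 0 to 2 receptors were called with a library left out and none when that library was replicate 2 of the DSS-treated mice without Cre.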
